A study of Mus musculus with 20 samples.

Results

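Retinas of CrxRip/+ mice were compared with retinas of Nrl-/- mice at postnatal day 21 (P21), over all 1497 genes of the P21 expression table. The comparison took in 4 of the 20 samples of the series, 2 of CrxRip/+ and 2 of Nrl-/-. CrxRip/+ mice carry 1 copy of CrxRip. This allele of Crx, a homeobox gene of photoreceptors, acts dominantly and is studied as a model of CRX-associated congenital blindness. Nrl-/- mice carry no functional copy of Nrl. The 2 wild-type samples of the same age give the level of each gene in a normal retina. The fit behind the p-values used all 10 samples of P21. These include CrxRip/Rip mice, homozygous for the allele, and Crx-/- mice, the null of Crx. Samples of postnatal day 2 (P2) are described near the end. All CrxRip/+, Nrl-/- and wild-type samples of P21 were whole retina of the C57BL/6J strain. Each pooled 2 frozen retinas, from which RNA was extracted with Trizol and made into strand-specific sequencing libraries. The labels do not say which retinas came from the same animal, so p-values measure the spread between pools of retinas.

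Rods and cones arise from a common precursor in which Crx and the related factor Otx2 switch on photoreceptor genes. Nrl, a leucine zipper factor, and its target Nr2e3, a nuclear receptor, direct the precursor to the rod fate, and Nr2e3 also keeps cone genes off. A mouse retina without Nrl is known for forming cells that resemble short-wavelength cones where rods would be, with high levels of cone opsin and of the cone forms of the phototransduction proteins. CRX binds sites with a TAAT core in the promoters of both rod and cone genes.

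The values were fragments per kilobase of transcript and scaled to the number of mapped fragments (FPKM), so that each gene's reads are divided by its length and by the depth of its library. Summed over the table, FPKM came to 28022.9 and 27469.9 in the CrxRip/+ samples, against 40702.0 and 39283.4 in the Nrl-/- samples and 55335.3 and 53395.9 in wild type. The CrxRip/+ samples differed from each other more than those of Nrl-/- or of wild type did. Among genes with a mean of at least 5 FPKM in the genotype, the samples differed by over 1.5-fold for 64 of 850 genes (7.53%) in CrxRip/+, against 18 of 861 (2.09%) in Nrl-/- and 15 of 818 (1.83%) in wild type. Differences below are CrxRip/+ minus Nrl-/- on the log2(FPKM + 1) scale, with the standard error (SE) of the fit, and this scale understates the change of genes near 0. A gene was called higher or lower where its adjusted p from limma was under 0.05. Every gene of the table had been selected by the authors because it differed between some pair of the 5 genotypes, so shares of called genes describe a selected list and not the transcriptome. At P21, 730 of the 1497 genes (48.8%) were called, 315 higher and 415 lower in CrxRip/+. The authors' deposited table called 308 (20.6%) at their threshold of a log2 fold change of at least 1.

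The promoters of 4 cone genes are printed. Opn1sw, Opn1mw and Arr3 had the largest falls of the cone genes, and Gnat2 fell by less (-2.29). Cnga3 (-5.40), Kcne2 (-4.64), Otop3 (-3.12), Ccdc136 (-3.11), Pde6h and Cngb3 also fell by more than Gnat2 and are not printed. Opn1sw and Opn1mw, the short- and medium-wavelength cone opsins, were close to absent in CrxRip/+. Arr3, cone arrestin, was strongly reduced there (6.5 and 10.6 FPKM), while Gnat2, the cone transducin alpha subunit, was reduced but kept. Each sequence is the 250 bases before a start site in RefSeq (GRCm38.p6), written 5′ to 3′ in the direction of transcription, and capitals mark the letters TAAT or the same letters on the other strand, ATTA.
Opn1sw, chr6:29380514-29380763, - strand: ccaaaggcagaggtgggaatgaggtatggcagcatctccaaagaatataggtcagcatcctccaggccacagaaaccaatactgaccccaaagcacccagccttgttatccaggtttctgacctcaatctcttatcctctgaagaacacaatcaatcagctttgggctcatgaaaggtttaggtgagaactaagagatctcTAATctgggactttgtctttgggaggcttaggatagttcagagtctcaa
Opn1mw, chrX:74127216-74127465, + strand: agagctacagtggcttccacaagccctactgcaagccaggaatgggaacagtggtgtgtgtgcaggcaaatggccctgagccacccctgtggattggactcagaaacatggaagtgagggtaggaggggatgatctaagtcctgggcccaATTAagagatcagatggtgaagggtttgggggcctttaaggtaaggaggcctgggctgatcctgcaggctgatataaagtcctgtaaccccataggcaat
Arr3, chrX:100605247-100605496, + strand: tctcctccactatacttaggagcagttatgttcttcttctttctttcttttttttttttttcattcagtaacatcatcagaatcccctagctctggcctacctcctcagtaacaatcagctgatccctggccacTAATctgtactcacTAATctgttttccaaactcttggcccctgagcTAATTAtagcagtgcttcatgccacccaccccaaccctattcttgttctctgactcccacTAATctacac
Gnat2, chr3:108092816-108093065, + strand: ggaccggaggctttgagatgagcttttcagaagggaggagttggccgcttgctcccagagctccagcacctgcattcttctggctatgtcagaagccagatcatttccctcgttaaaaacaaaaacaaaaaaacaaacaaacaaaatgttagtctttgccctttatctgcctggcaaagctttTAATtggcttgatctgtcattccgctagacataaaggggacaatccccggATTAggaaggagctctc
The Arr3 window held 5 matches to TAAT on either strand, of which a pair overlap, the Gnat2 window held 2, and the Opn1sw and Opn1mw windows held 1 each. Of the 15 cone genes in the table, 10 had a promoter in the RefSeq set, and TAAT was found in 9 of these, all but Pde6h. TAAT was also found for 9 of the 11 rod genes with a promoter. Other letters, CANNTG with N for any base, were likewise found for 9 of the 10 cone genes. CANNTG was found for 69.3% of all RefSeq genes and 68.2% of the table's genes. TAAT is short, and was found for 58.5% of all 27025 RefSeq genes and for 48.8% of the 1162 genes of the P21 table that had a promoter. The longer letters TAATCC, which contain TAAT, were found for 2 of the 10 cone genes, against 7.2% of all RefSeq genes and 9.7% of the table's genes. Among genes that were lower in CrxRip/+ than in Nrl-/- by at least 1 on the log2 scale, TAATCC was found for 14 of 100 with a promoter, and among those higher by at least 1 for 1 of 48. The rod genes, which showed no common direction between the mutants, had TAATCC for 4 of 11 with a promoter (36.4%). These are matches of letters and say nothing of binding.

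Both genotypes had lost the transcript of Nrl. It measured 0.9 and 0.4 FPKM in CrxRip/+ and 0.2 and 0.2 FPKM in Nrl-/-, against 466.1 and 427.6 FPKM in wild type. All 4 mutant samples thus lay under 1 FPKM, and the small difference between the mutants (0.44 ± 0.14, adjusted p = 0.0319) lost its call without CrxRip/+ replicate 1 (0.22, adjusted p = 0.138) and without either Nrl-/- sample. Nr2e3 was likewise near 0, at 1.7 and 1.0 FPKM in CrxRip/+ and 0.0 and 0.2 FPKM in Nrl-/-, with 223.7 and 198.8 FPKM in wild type. It was called higher in CrxRip/+ (1.08 ± 0.15, adjusted p = 0.00075), and its level there was still under 2 FPKM. Esrrb, a nuclear receptor of mature rods, and Mef2c, a MADS-box factor that activates rod genes, were also low in both, at 1.0 and 2.0 FPKM and 1.2 and 1.0 FPKM in CrxRip/+ and at 1.9 and 2.0 FPKM and 1.2 and 1.2 FPKM in Nrl-/-. Neither was called between the mutants, with log2 differences of -0.27 ± 0.20 for Esrrb and -0.07 ± 0.10 for Mef2c. Without CrxRip/+ replicate 2 Esrrb was called lower (-0.56, adjusted p = 0.0457).

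Crx and Otx2 themselves remained abundant. Crx measured 310.9 and 275.1 FPKM in CrxRip/+, 341.9 and 300.0 FPKM in Nrl-/- and 350.7 and 343.9 FPKM in wild type, with overlapping mutant samples and a difference of -0.13 ± 0.13 (adjusted p = 0.421). The table gives 1 value for Crx and does not separate the CrxRip transcript from the wild-type one. Otx2 measured 153.3 and 152.7 FPKM in CrxRip/+, 126.3 and 107.2 FPKM in Nrl-/- and 81.0 and 80.1 FPKM in wild type. It was higher in CrxRip/+ than in Nrl-/- (0.39 ± 0.11, adjusted p = 0.0166), a call that was lost without either CrxRip/+ sample, without Nrl-/- replicate 2 and under the authors' scaling (adjusted p of 0.0549 to 0.109 in these). Rxrg, a retinoid receptor of cones, stood above wild type in both mutants, at 14.4 and 19.3 FPKM in CrxRip/+ and 20 and 17.4 FPKM in Nrl-/-, against 2.5 and 2.6 FPKM in wild type. The Rxrg samples of the mutants overlapped, and the difference was -0.15 ± 0.16 (adjusted p = 0.453).

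4 of the 13 listed photoreceptor transcription factors and cofactors in the table were lower in CrxRip/+ than in Nrl-/-, and 3 were higher, namely Nrl, Nr2e3 and Otx2. Of all 1497 genes, 27.7% were called lower and 21.0% higher. Samd7, a repressor that acts in rods with polycomb proteins, measured 1.7 and 2.0 FPKM in CrxRip/+ against 20.2 and 19.1 FPKM in Nrl-/-, with 41.6 and 43.5 FPKM in wild type. The CrxRip/+ level was 10.6-fold below that of Nrl-/- (-2.86 ± 0.10, adjusted p = 4.22e-07). Sall3, which promotes cone and horizontal cell traits as a zinc-finger protein, measured 0.9 and 1.0 FPKM in CrxRip/+, 6.6 and 6.4 FPKM in Nrl-/- and 0.9 FPKM in both wild-type samples. Here the CrxRip/+ level matched wild type and the Nrl-/- level stood above both (-1.94 ± 0.23, adjusted p = 0.000305). Prdm1, which restrains bipolar genes in young photoreceptors, measured 8.6 and 9.6 FPKM in CrxRip/+, against 16.5 and 14.2 FPKM in Nrl-/- (-0.69 ± 0.10, adjusted p = 0.000774), and wild type had 3.9 and 3.8 FPKM. Pias3, a SUMO ligase partner of Nr2e3 and Crx, was lower by a smaller step (-0.43 ± 0.10, adjusted p = 0.00765).

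**Figure D1:**
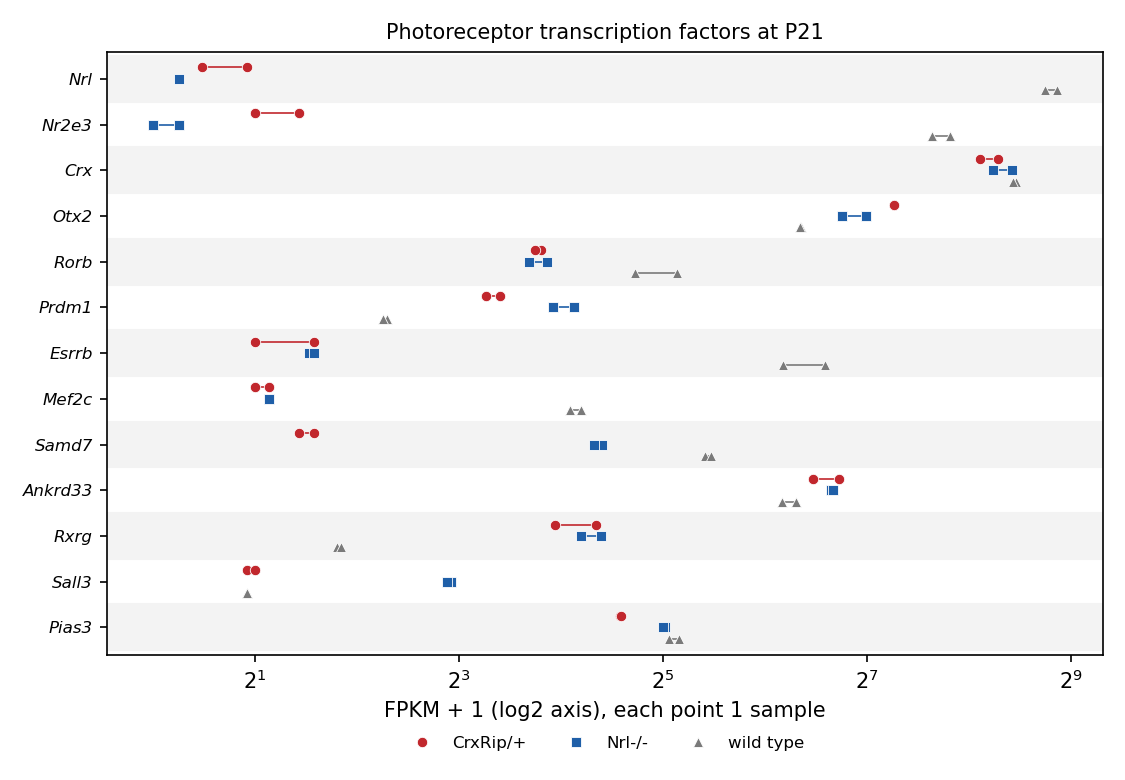
Level of each of the 13 photoreceptor transcription factors and cofactors in the table, as FPKM + 1 on a log2 axis, with 1 point per sample (CrxRip/+, circles; Nrl-/-, squares; wild type, triangles) and a line joining the 2 samples of a genotype. Nrl, Nr2e3, Esrrb and Mef2c lie far below wild type in both mutants, and Samd7 and Sall3 separate CrxRip/+ from Nrl-/-.

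The cone genes set the genotypes furthest apart. 14 of the 15 cone genes in the table were lower in CrxRip/+ than in Nrl-/- and none was higher, with a list median of -2.88 against -0.04 over all 1497 genes. The share called lower over the table was 27.7%. Between 12 and 15 cone genes were called lower under each of the 11 other settings of the fit. In whole retina, fewer cells of a type and less RNA per cell cannot be told apart.

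Both cone opsins were close to absent in CrxRip/+. Opn1sw measured 1.2 and 0.9 FPKM in CrxRip/+, against 2501.0 and 2298.6 FPKM in Nrl-/- and 164.5 and 141.0 FPKM in wild type. It was thus the most abundant cone transcript of Nrl-/- and lay under wild type in CrxRip/+ (-10.20 ± 0.11 against Nrl-/-, adjusted p = 2.27e-10). Opn1mw measured 0.7 FPKM in both CrxRip/+ samples, against 232.4 and 278.1 FPKM in Nrl-/- and 103.8 and 97.4 FPKM in wild type (-7.23 ± 0.12, adjusted p = 3.67e-09). Arr3, which quenches cone opsin, measured 6.5 and 10.6 FPKM in CrxRip/+, against 678.0 and 707.8 FPKM in Nrl-/- and 122.0 and 118.2 FPKM in wild type. Arr3 was 81.0-fold lower in CrxRip/+ than in Nrl-/- by the ratio of mean FPKM (-6.22 ± 0.20, adjusted p = 3.08e-07). All CrxRip/+ samples lay below all wild-type samples for these 3 genes, and all Nrl-/- samples above them.

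The cone channel subunits split. Cnga3, the alpha subunit of the cyclic nucleotide-gated channel, was listed at 0.2 FPKM in both CrxRip/+ samples, against 52.8 and 46.4 FPKM in Nrl-/- and 3.6 and 3.7 FPKM in wild type (-5.40 ± 0.09, adjusted p = 3.71e-09). Cngb3, its beta subunit, measured 16.7 and 15.2 FPKM in CrxRip/+, 99.9 and 83.3 FPKM in Nrl-/- and 4.7 and 4.8 FPKM in wild type (-2.45 ± 0.14, adjusted p = 6.5e-06). In CrxRip/+ the alpha subunit therefore lay below wild type and the beta subunit above it, while in Nrl-/- both lay above. Kcne2, a potassium channel subunit, followed the pattern of Cnga3, at 5.2 and 5.9 FPKM in CrxRip/+, 170.6 and 153.5 FPKM in Nrl-/- and 25.3 and 23.3 FPKM in wild type (-4.64 ± 0.10, adjusted p = 2.1e-08).

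The transducin and phosphodiesterase subunits of cones were reduced against Nrl-/- and yet stood above wild type, apart from Pde6h. Gnat2 measured 157.8 and 162.0 FPKM in CrxRip/+, 805.7 and 764.0 FPKM in Nrl-/- and 83.0 and 68.2 FPKM in wild type. Its level was 4.91-fold lower in CrxRip/+ than in Nrl-/- (-2.29 ± 0.11, adjusted p = 2.33e-06) and called higher than in wild type (1.08, adjusted p = 3.95e-05). Gnb3, the beta subunit, measured 256.0 and 257.5 FPKM in CrxRip/+, 732.8 and 722.3 FPKM in Nrl-/- and 122.8 and 119.1 FPKM in wild type (-1.50 ± 0.13, adjusted p = 6.99e-05). Gngt2, the gamma subunit, measured 500.8 and 421.3 FPKM in CrxRip/+, 655.3 and 658.0 FPKM in Nrl-/- and 52.6 and 48.8 FPKM in wild type. Gngt2 was by far the nearest of the 3 subunits to its Nrl-/- level (-0.51 ± 0.18, adjusted p = 0.0414), and its call was lost without CrxRip/+ replicate 2 (adjusted p = 0.196), without either Nrl-/- sample and with the replicate block (adjusted p = 0.0594).

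Pde6c, the catalytic subunit of the cone phosphodiesterase, measured 76.3 and 118.9 FPKM in CrxRip/+, 425.8 and 429.0 FPKM in Nrl-/- and 30.9 and 33.3 FPKM in wild type (-2.15 ± 0.24, adjusted p = 0.00021). Pde6h, its inhibitory subunit, measured 37.5 and 149.9 FPKM in CrxRip/+, against 580.2 and 543.3 FPKM in Nrl-/- and 86.3 and 78.4 FPKM in wild type. The CrxRip/+ samples lay on either side of wild type for Pde6h, while both lay under both Nrl-/- samples (-2.88 ± 0.50, adjusted p = 0.00203). Ccdc136, a coiled-coil protein of photoreceptors, and Otop3, a proton channel, were lower than in Nrl-/- (-3.11 and -3.12) and were not called against wild type (0.18 and 0.56, adjusted p = 0.23 and 0.0949). Kifc3, a motor protein, was lower by a smaller step (-0.44 ± 0.11, adjusted p = 0.0138), a call lost without CrxRip/+ replicate 1 (-0.29, adjusted p = 0.0571) and without either Nrl-/- sample. Slc24a2, the cone sodium-calcium exchanger, was the one listed gene not called (16.0 and 24.5 FPKM in CrxRip/+, 27.3 and 28.9 FPKM in Nrl-/-, adjusted p = 0.0632). It was called lower without CrxRip/+ replicate 2 (adjusted p = 0.00569), with the replicate block (adjusted p = 0.0358) and under the authors' scaling (adjusted p = 0.0311).

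Set beside wild type, the 2 mutants gave different counts for the cone list. In CrxRip/+ 6 of the 15 genes were higher and 6 lower than wild type, in a table where 39.5% of genes were called higher and 35.0% lower in that comparison. In Nrl-/- 14 were higher and 1, Kifc3, was lower, against 40.4% and 31.8% of the table. Both comparisons use the same 2 wild-type samples. Summed over the 15 genes, FPKM came to 1113.3 and 1206.8 in CrxRip/+, 7285.1 and 7039.6 in Nrl-/- and 844.8 and 784.5 in wild type. Gngt2, Gnb3 and Gnat2 made up most of the CrxRip/+ sum, and Opn1sw was the largest single part of the Nrl-/- sum.

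**Figure D2:**
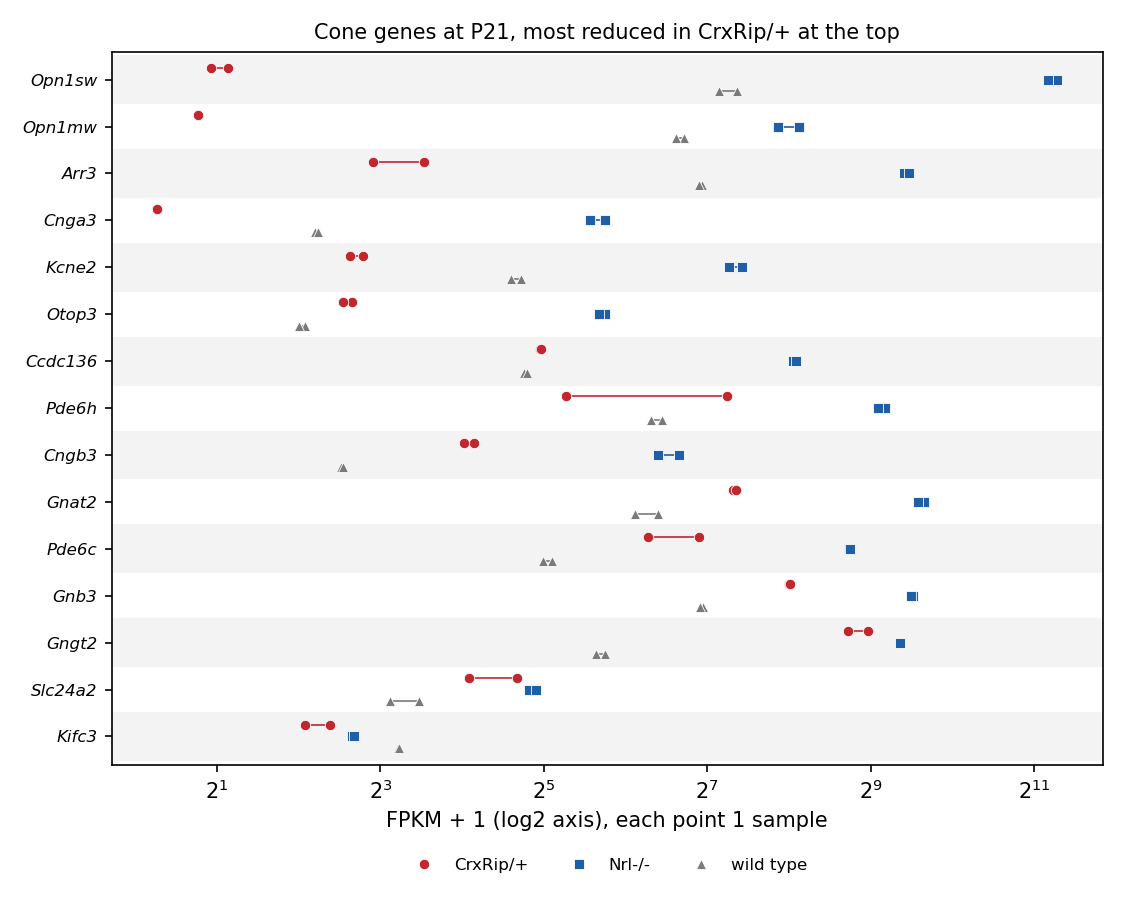
Level of the 15 cone genes in the table, as FPKM + 1 on a log2 axis, 1 point per sample, with the most reduced gene in CrxRip/+ at the top (CrxRip/+, circles; Nrl-/-, squares; wild type, triangles). All CrxRip/+ points lie left of the Nrl-/- points, and they cross from below wild type for Opn1sw, Opn1mw, Arr3, Cnga3 and Kcne2 to above it for Cngb3, Gnat2, Pde6c, Gnb3 and Gngt2.

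**Figure D3:**
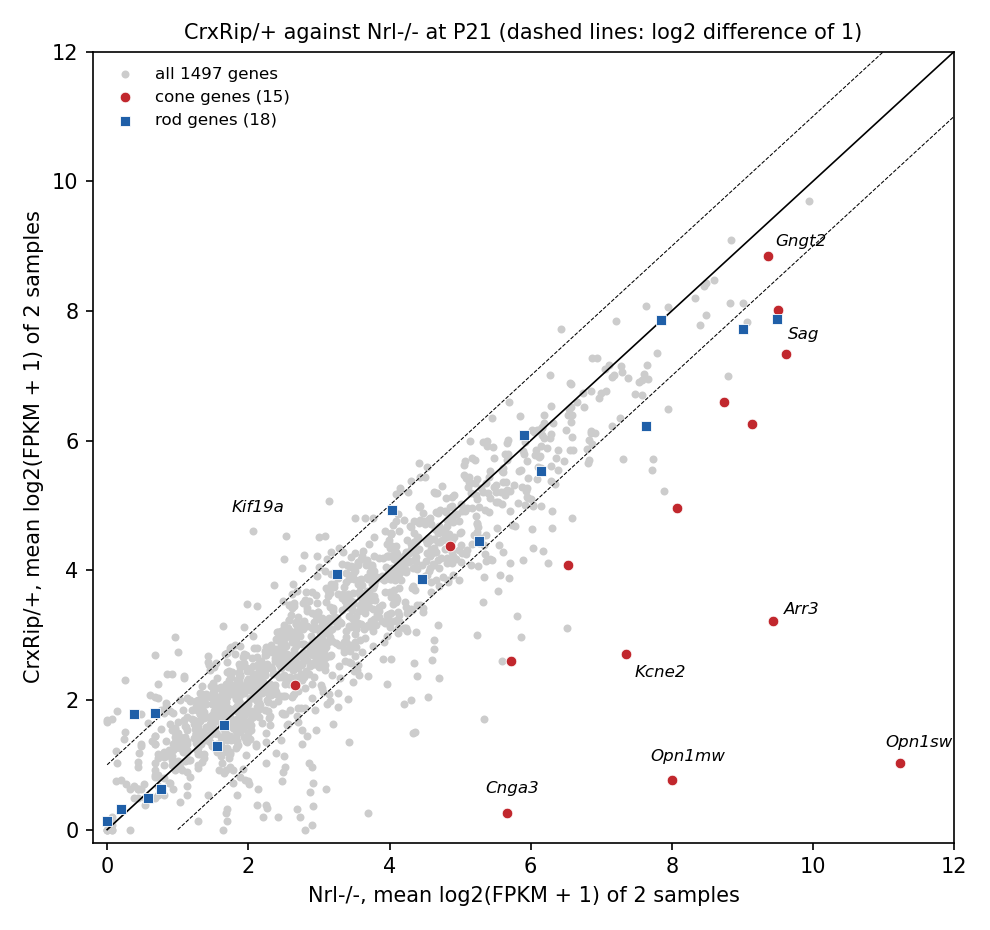
Mean log2(FPKM + 1) of each of the 1497 genes in CrxRip/+ (vertical axis) against Nrl-/- (horizontal axis), with the 15 cone genes as circles and the 18 rod genes as squares. The solid line marks equal levels and the dashed lines a log2 difference of 1. Cone genes make up the points furthest below the line, and the rod genes lie on both sides of it.

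The rod genes were far below wild type in both mutants and showed no common direction between them. All 18 were lower than wild type in each mutant, against 35.0% of all genes in CrxRip/+ and 31.8% in Nrl-/-. Between the mutants 5 were lower in CrxRip/+, 3 were higher and 10 were not called, and the list median was -0.07, against -0.04 over the table. These counts lie near the shares called over the table, 27.7% lower and 21.0% higher.

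Several rod genes were close to 0 in the mutants or kept a small part of their wild-type level. Gnat1, rod transducin alpha, measured 4.6 and 1.1 FPKM in CrxRip/+ and 0.3 FPKM in both Nrl-/- samples, against 4373.3 and 4352.0 FPKM in wild type. CrxRip/+ replicate 1 was the highest of the 4 compared samples, and Gnat1 was called higher (1.40 ± 0.37, adjusted p = 0.0147). That call was lost without either Nrl-/- sample and with the 4 compared samples alone (limma adjusted p = 0.0916). Cnga1, the rod channel subunit, was listed at 0.2 and 0.0 FPKM in CrxRip/+ and at 0 in both Nrl-/- samples, against 244.5 and 228.2 FPKM in wild type. Pde6b, a catalytic subunit of the rod phosphodiesterase, was better kept and was higher in CrxRip/+, with 24.9 and 35.2 FPKM against 15.5 and 15.3 FPKM in Nrl-/- (0.90 ± 0.19, adjusted p = 0.00499). Its partner Pde6a went the other way, with 19.2 and 22.7 FPKM in CrxRip/+ against 36.3 and 39.1 FPKM in Nrl-/- (-0.82 ± 0.12, adjusted p = 0.000771). The samples of the mutants did not overlap for either subunit.

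Sag and Pde6g, which the Nrl-/- retina still expressed strongly, were lower in CrxRip/+. Sag, rod arrestin, measured 231.2 and 234.7 FPKM in CrxRip/+, 687.4 and 753.0 FPKM in Nrl-/- and 1394.0 and 1302.6 FPKM in wild type (-1.62 ± 0.11, adjusted p = 1.46e-05). Pde6g, the inhibitory subunit of the rod phosphodiesterase, measured 241.5 and 184.1 FPKM in CrxRip/+ against 553.4 and 478.3 FPKM in Nrl-/- (-1.28 ± 0.15, adjusted p = 0.000296). Gngt1, rod transducin gamma, and Gnb1, rod transducin beta, were not called, with 254.8 and 210.8 FPKM and 65.8 and 68.3 FPKM in CrxRip/+ against 231.7 and 226.6 FPKM and 58.7 and 59.3 FPKM in Nrl-/-. Transducin therefore differed between the mutants in its cone subunits, while of the rod subunits Gnat1 alone was called, at levels under 5 FPKM.

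Genes that serve phototransduction and the outer segment in both photoreceptor classes were mostly lower. Of 34 such genes, 20 were lower in CrxRip/+ than in Nrl-/- and none was higher, with 14 not called and a list median of -0.48. Over all 1497 genes 27.7% were called lower and 21.0% higher, and the median was -0.04. The count of lower genes was between 15 and 22 under the other settings, and 1 gene was called higher in 1 of them. Guca1a, an activator of guanylate cyclase, measured 116.1 and 137.9 FPKM in CrxRip/+, 422.6 and 468.3 FPKM in Nrl-/- and 403.7 and 362.2 FPKM in wild type. Here Nrl-/- stood at the wild-type level and CrxRip/+ 3.51-fold below Nrl-/- (-1.81 ± 0.13, adjusted p = 2.37e-05). Drd4, the dopamine receptor of photoreceptors, measured 3.6 and 2.7 FPKM in CrxRip/+, 25.3 and 19.7 FPKM in Nrl-/- and 30.7 and 26.9 FPKM in wild type (-2.50 ± 0.17, adjusted p = 1.45e-05). Nxnl2, a thioredoxin-like gene linked to photoreceptor survival, measured 3.7 and 4.4 FPKM in CrxRip/+ against 24.4 and 25.9 FPKM in Nrl-/- (-2.38 ± 0.13, adjusted p = 5.63e-06). For Drd4 and Nxnl2 too, the CrxRip/+ samples lay far under the other 4.

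The remaining members differed by less or were not called. Rcvrn, recoverin, measured 131.1 and 60.2 FPKM in CrxRip/+ against 269.4 and 221.6 FPKM in Nrl-/- (-1.45 ± 0.40, adjusted p = 0.0186), and was not called without CrxRip/+ replicate 2 (-0.89, adjusted p = 0.105) or without either Nrl-/- sample. Pdc, phosducin, which binds transducin beta-gamma, measured 244.7 and 211.2 FPKM in CrxRip/+ against 495.3 and 580.1 FPKM in Nrl-/- (-1.23 ± 0.15, adjusted p = 0.000374). Rom1, an outer segment disc protein, measured 123.7 and 119.0 FPKM in CrxRip/+ against 204.0 and 178.3 FPKM in Nrl-/- (-0.65 ± 0.13, adjusted p = 0.00342). Its partner Prph2 was not called, with 338.8 and 329.6 FPKM in CrxRip/+ against 363.4 and 336.7 FPKM in Nrl-/-, and wild type averaged 1519.3 FPKM. Rbp3, the retinoid carrier between photoreceptors and pigment epithelium, remained the most abundant of the list in CrxRip/+ (767.9 and 896.5 FPKM, against 946.2 and 1015.7 FPKM in Nrl-/-) and was not called (adjusted p = 0.133), although it was called lower with the replicate block (adjusted p = 0.0309) and under the authors' scaling (adjusted p = 0.041). Slc17a7, the vesicular glutamate transporter of photoreceptor terminals, was close to level across the genotypes (356.5 and 329.6 FPKM in CrxRip/+, 360.2 and 351.9 FPKM in Nrl-/-, 366.1 and 363.0 FPKM in wild type).

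**Figure D4:**
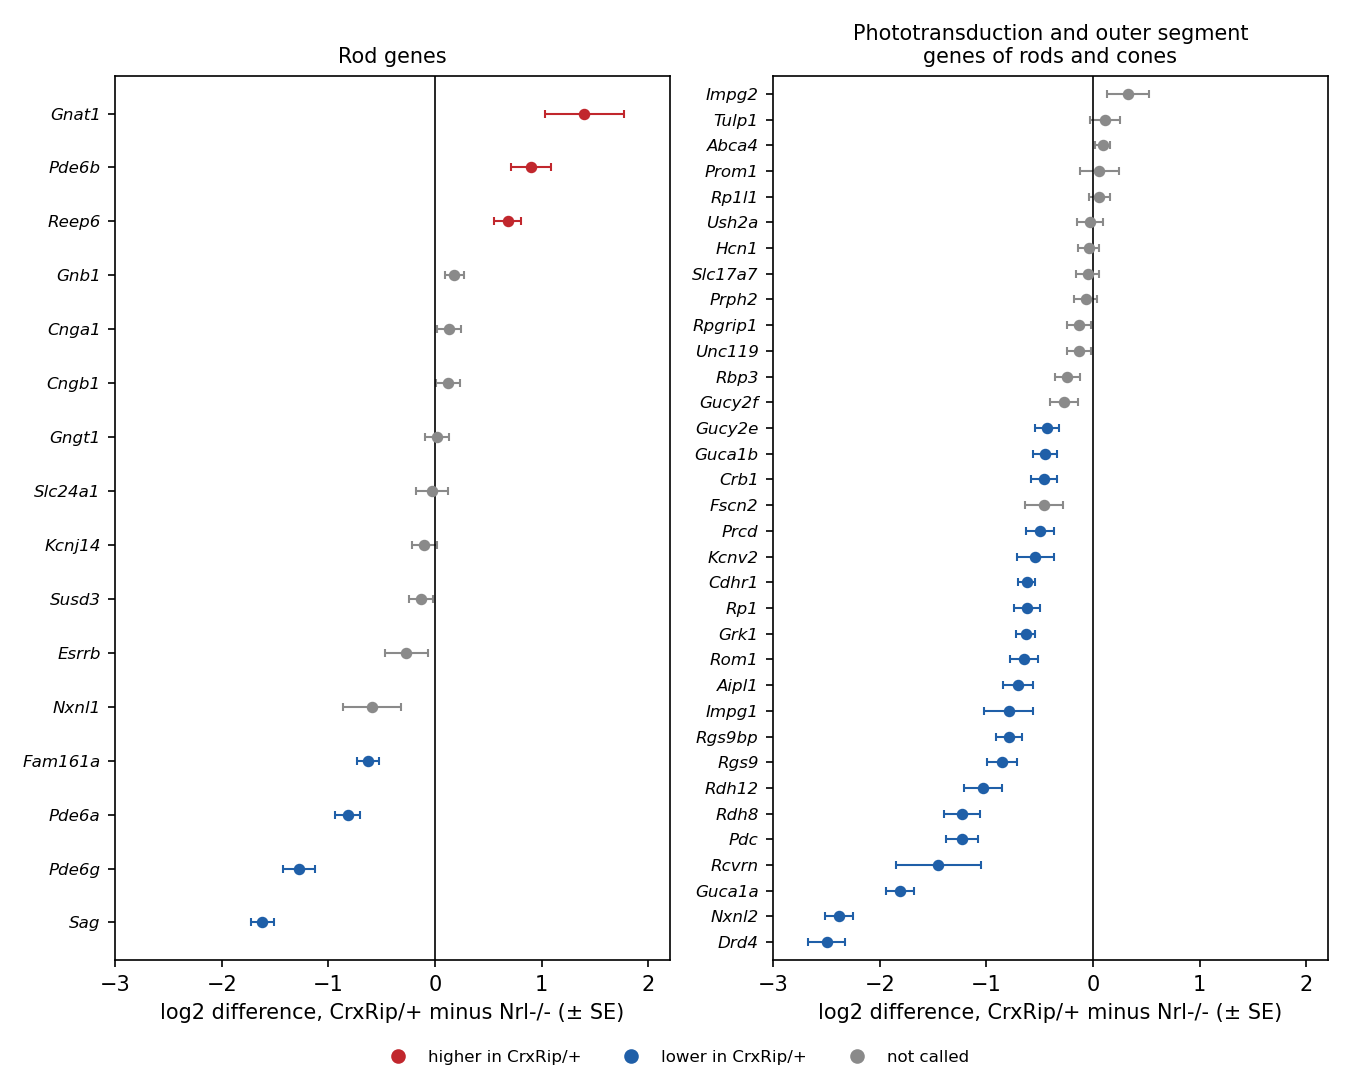
Log2 difference, CrxRip/+ minus Nrl-/-, with its SE, for 16 of the 18 rod genes (left) and the 34 phototransduction and outer segment genes of both photoreceptor classes (right) at P21. Called genes are coloured by direction and uncalled ones are grey. Rod genes fall on both sides of 0 (3 called higher and 4 lower among those shown), and the called genes of the right panel all lie below 0.

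Of 10 measured synapse genes, 5 were lower in CrxRip/+ and none higher, against 27.7% lower and 21.0% higher over the table. Cabp4, a calcium-binding protein of the photoreceptor terminal, measured 14.1 and 17.6 FPKM in CrxRip/+ against 40.0 and 34.7 FPKM in Nrl-/- (-1.19 ± 0.15, adjusted p = 0.000345). Pcdh15, a protocadherin of photoreceptors, measured 29.7 and 32.1 FPKM in CrxRip/+, 59.6 and 69.8 FPKM in Nrl-/- and 14.2 and 15.8 FPKM in wild type. Pcdh15 was thus lower than in Nrl-/- (-1.04 ± 0.10, adjusted p = 0.000118) while above wild type in both mutants.

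Adrb1 and Eya1 were among the 10 largest falls of genes above 5 FPKM and are not on the cone list. Adrb1, the beta-1 adrenergic receptor, measured 1.6 and 3.1 FPKM in CrxRip/+, 42.4 and 36.5 FPKM in Nrl-/- and 4.8 and 4.2 FPKM in wild type (-3.63 ± 0.22, adjusted p = 8.49e-06). Eya1, a transcriptional coactivator and phosphatase, was listed at 0.2 FPKM in both CrxRip/+ samples, against 12.2 and 11.8 FPKM in Nrl-/- and 0.5 FPKM in both wild-type samples (-3.44 ± 0.10, adjusted p = 2.16e-07). Among these genotypes Nrl-/- stood high for both genes, and CrxRip/+ lay below wild type, for Eya1 at levels near 0. Samples of Crx-/- mice, the null of Crx, also stood above wild type, at 12.4 and 13.3 FPKM for Adrb1 and 6.9 and 6.3 FPKM for Eya1. In CrxRip/Rip mice, homozygous for the allele, Adrb1 measured 9.4 and 6.7 FPKM and Eya1 0.2 and 0.4 FPKM.

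Fewer genes were higher in CrxRip/+ by at least 1 on the log2 scale (60 of 1497, 4.01%) than lower (133, 8.88%). Kif19a, a kinesin that trims the tips of motile cilia, led the rises, with 26.9 and 20.2 FPKM in CrxRip/+, 3.0 and 3.4 FPKM in Nrl-/- and 1.1 and 0.7 FPKM in wild type (2.54 ± 0.25, adjusted p = 0.00012). Egr3, an immediate early zinc-finger factor, measured 6.5 and 4.6 FPKM in CrxRip/+, 0.7 and 0.5 FPKM in Nrl-/- and 0.1 FPKM in both wild-type samples (2.02 ± 0.20, adjusted p = 0.000118). Apobec2, a member of the cytidine deaminase family, measured 21.7 and 22.7 FPKM in CrxRip/+ against 3.7 and 6.2 FPKM in Nrl-/- (2.00 ± 0.20, adjusted p = 0.000116), and wild type had 5.9 and 4.5 FPKM. The CrxRip/+ samples stood above the other 4 for these 3 genes. Trim43c, Acbd7, Ccdc141 and Rbfox3 (NeuN, a neuronal splicing factor) were also above both other genotypes, with log2 differences from Nrl-/- of 2.00, 1.75, 1.51 and 1.49.

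A second kind of rise was a smaller loss from wild type. Nt5e, the CD73 ectonucleotidase found on rod precursors, measured 31.8 and 33.6 FPKM in CrxRip/+, 7.5 and 8.1 FPKM in Nrl-/- and 46.3 and 53.6 FPKM in wild type (1.94 ± 0.10, adjusted p = 2.8e-06). Cdr2 measured 17.3 and 16.8 FPKM in CrxRip/+, 4.7 FPKM in both Nrl-/- samples and 84.8 and 80.5 FPKM in wild type (1.66 ± 0.11, adjusted p = 1.17e-05). Plpp2, a lipid phosphatase, measured 5.8 and 10.4 FPKM in CrxRip/+, 2.5 and 1.8 FPKM in Nrl-/- and 25.5 and 23.8 FPKM in wild type (1.49 ± 0.27, adjusted p = 0.00253). In all 3 the CrxRip/+ samples lay between the other genotypes.

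The most abundant genes among those called higher changed by less. Ckb, brain creatine kinase, measured 549.8 and 546.0 FPKM in CrxRip/+ against 469.8 and 441.5 FPKM in Nrl-/-, and its call (0.27 ± 0.08, adjusted p = 0.0302) was lost without each of the 4 samples in turn. Eef1a2, a translation factor of neurons, was the exception, with 212.4 and 206.2 FPKM in CrxRip/+, 86.6 and 83.3 FPKM in Nrl-/- and 77.3 and 85.3 FPKM in wild type (1.29 ± 0.14, adjusted p = 0.000199). Chgb, a secretory granule protein, and Nrep measured 264.2 and 273.0 FPKM and 246.4 and 211.0 FPKM in CrxRip/+, against 197.8 and 198.5 FPKM and 148.2 and 145.7 FPKM in Nrl-/- (0.44 and 0.63, adjusted p = 0.00583 and 0.00176). Cst3, cystatin C, was higher by 0.34 (adjusted p = 0.0215), and this call too was lost without CrxRip/+ replicate 2 (adjusted p = 0.106) and without Nrl-/- replicate 1 (adjusted p = 0.117) or replicate 2 (adjusted p = 0.0513).

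**Figure D5:**
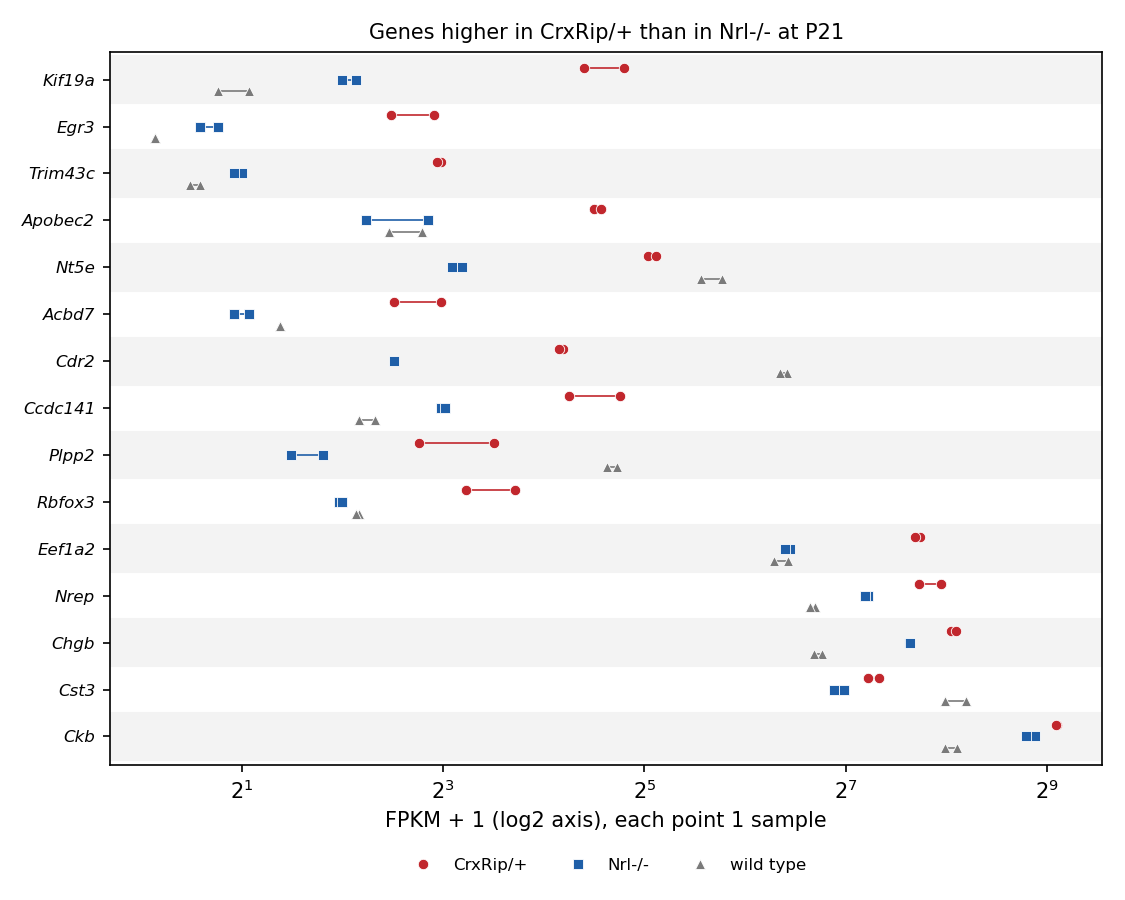
Level of the 10 genes with the largest rises and the 5 most abundant called genes with a rise, as FPKM + 1 on a log2 axis, 1 point per sample, ordered by the log2 difference with the largest at the top of each set (CrxRip/+, circles; Nrl-/-, squares; wild type, triangles). Most CrxRip/+ points lie right of both other genotypes, and Nt5e, Cdr2, Plpp2 and Cst3 lie between Nrl-/- and wild type.

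Markers of inner retinal neurons were few in the table. Of 8 bipolar genes 3 were lower in CrxRip/+ and 2, Otx2 and Kcng4, were higher, near the 27.7% and 21.0% of the table. The call of Kcng4, a potassium channel subunit, was lost without Nrl-/- replicate 2 (0.49, adjusted p = 0.0594), as was that of Otx2. Cabp5, a calcium-binding protein of bipolar cells measured 56.9 and 47.1 FPKM in CrxRip/+, 159.1 and 155.0 FPKM in Nrl-/- and 32.5 and 45.6 FPKM in wild type (-1.58 ± 0.17, adjusted p = 0.000166). Lhx4, a LIM homeobox factor of cone bipolar cells and cones, measured 6.1 and 7.2 FPKM in CrxRip/+, 24.9 and 22.6 FPKM in Nrl-/- and 5.4 and 5.9 FPKM in wild type (-1.70 ± 0.10, adjusted p = 7.65e-06). In Nrl-/- both genes stood far above wild type (2.00 for Cabp5 and 1.90 for Lhx4), while in CrxRip/+ Cabp5 was called slightly above it (0.42, adjusted p = 0.0499) and Lhx4 was not called (0.20). That Cabp5 call was lost under median-of-ratios scaling (0.24, limma adjusted p = 0.207), and the authors' deposited table did not call it. The protein kinase of rod bipolar cells, Prkca, was not called (-0.09 ± 0.11). Of 6 horizontal cell genes 4 were lower and 1 higher, against 27.7% lower and 21.0% higher over the table. Sphkap, an anchor of protein kinase A, was the largest fall (54.2 and 48.7 FPKM in CrxRip/+, 211.7 and 209.9 FPKM in Nrl-/-, 53.9 and 52.0 FPKM in wild type, -2.02 ± 0.11, adjusted p = 4.14e-06), and Kdr, a VEGF receptor that horizontal and endothelial cells express, was higher (1.08 ± 0.21, adjusted p = 0.00361). The count of lower horizontal cell genes fell without any 1 of the 4 samples, as did the count of lower genes over the whole table. None of 3 amacrine genes was called by limma or by the authors' deposited table, or had an unadjusted p under 0.05, although 1 was called higher without CrxRip/+ replicate 1.

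Genes of glial reaction and stress moved in both directions, and their counts varied with the sample left out. Of 20 genes 5 were higher in CrxRip/+, 4 lower and 11 not called, near the 21.0% higher and 27.7% lower of the table. Gfap, the filament protein of reactive glia, measured 15.8 and 21.3 FPKM in CrxRip/+, 9.6 and 8.7 FPKM in Nrl-/- and averaged 4.1 FPKM in wild type (0.93 ± 0.17, adjusted p = 0.00254). Serpina3n, a protease inhibitor of reactive astrocytes, measured 3.0 and 9.2 FPKM in CrxRip/+ against 1.6 and 1.8 FPKM in Nrl-/- (1.24 ± 0.37, adjusted p = 0.0234), a call lost without Nrl-/- replicate 1 (adjusted p = 0.104) or replicate 2 (adjusted p = 0.0789). Socs3, a brake on STAT3 signalling, was lower, with 0.7 and 2.0 FPKM in CrxRip/+ against 4.5 and 4.0 FPKM in Nrl-/- (-1.22 ± 0.23, adjusted p = 0.00333). CrxRip/+ replicate 2 had the higher value for 18 of the 20 genes, against 8 of 20 for Nrl-/- replicate 2. Fits without 1 of the compared samples changed the count of higher genes, both on this list and over the whole table. What sets the 2 CrxRip/+ samples apart was not tested.

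Microglia and immune genes were also higher in CrxRip/+ replicate 2 than in replicate 1. None of 8 was called by limma, 1 had an unadjusted p under 0.05 and 2 were called in the authors' deposited table. CrxRip/+ replicate 2 was the higher of the pair for all 8. Summed over the 8 genes, FPKM came to 20.8 and 40.9 in CrxRip/+ against 28.9 and 20.6 in Nrl-/-. Of the 3 defining microglia markers none was in the table.

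Markers of neighbouring tissues and of blood were mostly not called by limma, which called 48.8% of all 1497 genes. The authors' deposited table called 20.6% of all genes at its threshold. Of 11 pigment epithelium genes only Otx2, which photoreceptors and bipolar cells also express, was called, and Rpe65, the retinoid isomerase of that tissue, measured 4.3 and 2.7 FPKM in CrxRip/+ against 4.3 and 2.8 FPKM in Nrl-/-. None of 4 lens crystallin genes was called by limma, none had an unadjusted p under 0.05, and all 4 were called in the authors' deposited table. Cryaa measured 2.4 and 4.2 FPKM in CrxRip/+, 0.1 and 1.1 FPKM in Nrl-/- and 21.2 and 5.4 FPKM in wild type, and the 2 wild-type samples lay far apart. Of 5 erythrocyte genes 1, Hbb-bt, was lower (-1.17 ± 0.41, adjusted p = 0.0445), and Nrl-/- replicate 2 was the highest sample, at 11.1 FPKM against 5.2 FPKM in its partner and 2.6 and 3.1 FPKM in CrxRip/+. That call was lost without Nrl-/- replicate 2 (-0.69, adjusted p = 0.269), without either CrxRip/+ sample, with the 4 samples alone, under median-of-ratios scaling and with a pseudocount of 0.1, while the authors' deposited table called all 5. The part of blood in these values was not tested. The hemoglobin genes are near-identical copies whose reads may be shared among them.

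Of 8 immediate early genes 3 were higher in CrxRip/+ than in Nrl-/- and 1, Ier3, was lower, against 21.0% higher and 27.7% lower over the table. Against wild type 7 were higher and 1 lower in CrxRip/+ (39.5% and 35.0% of the table), and 6 were higher and 2 lower in Nrl-/- (40.4% and 31.8% of the table), with the same wild-type samples in both comparisons. Besides Egr3 the higher ones were Jun, with 12.4 and 16.8 FPKM in CrxRip/+ against 8.7 and 7.3 FPKM in Nrl-/- (0.78 ± 0.16, adjusted p = 0.00408), and Atf3 (1.12 ± 0.20, adjusted p = 0.00223). Egr1 measured 64.0 and 54.5 FPKM in CrxRip/+ and 27.8 and 58.8 FPKM in Nrl-/-, and it was not called (adjusted p = 0.17), but was called higher without Nrl-/- replicate 2 (1.06, adjusted p = 0.00438). The count of higher genes of this list also changed without that sample. Among 7 genes of glycolysis and energy transfer 2 were lower and 1, Ckb, was higher, near the shares over the table. Hk2, the hexokinase of photoreceptors, measured 21.6 and 28.2 FPKM in CrxRip/+, 48.2 and 59.6 FPKM in Nrl-/- and 47.9 and 71.7 FPKM in wild type (-1.09 ± 0.20, adjusted p = 0.00304). Ckmt1, mitochondrial creatine kinase, measured 25.8 and 22.4 FPKM in CrxRip/+ against 81.7 and 74.6 FPKM in Nrl-/- (-1.66 ± 0.13, adjusted p = 4.22e-05).

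At P2, postnatal day 2, rods are still forming, and the same pair of genotypes differed in Nrl itself. Nrl measured 63.0 and 73.1 FPKM in CrxRip/+ and 0.1 FPKM in both Nrl-/- samples, and Nr2e3 measured 121.1 and 153.3 FPKM in CrxRip/+ against 0.1 and 0.0 FPKM in Nrl-/-. Wild type averaged 75.2 FPKM for Nrl and 132 FPKM for Nr2e3, so CrxRip/+ retinas were near the wild-type level of both factors at this age. Of the 566 genes measured at P2, 61.7% were called higher in CrxRip/+ and 24.0% lower. That split depends on the scaling. The median difference over the table was 0.75 as deposited and 0.07 under median-of-ratios scaling, and under that scaling 20.7% were called higher and 33.7% lower. Of 11 cone genes measured at P2, 10 were lower in CrxRip/+ with either scaling, among them Opn1sw, at 0.6 FPKM in both CrxRip/+ samples against 39.5 and 40.5 FPKM in Nrl-/- (-4.68, adjusted p = 2.13e-08). Gnat2 measured 1.5 and 1.6 FPKM in CrxRip/+ against 13.5 and 14.6 FPKM in Nrl-/- (-2.56, adjusted p = 2.11e-06). Of 8 rod genes measured at P2, 6 were higher in CrxRip/+ and 1 lower with either scaling, and Pde6g was the lower one (9.8 and 13.4 FPKM in CrxRip/+, 25.8 and 27.3 FPKM in Nrl-/-, -1.14, adjusted p = 0.000452). The 2 ages were scaled separately and were not tested against each other.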

How the data were processed

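Whole-retina RNA was sequenced from 5 genotypes at P2 and P21, with 2 samples for each genotype and age. The authors deposited, per the file headers, FPKM per sample rounded to 1 decimal, log2 fold changes and adjusted p-values for pairs of genotypes. The labels name DESeq, per the submitters' processing notes; the aligner, counter, genome build and annotation were not given in the sources used here. Depth is unknown, so no counting interval is given. Each listed gene passes the authors' adjusted p of 0.05, and their log2 fold change reaches 1, for some pair of genotypes. Gene symbols came from RefSeq accessions (1485 of 1497 matched).

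log2(FPKM + 1) was fitted with limma 3.58.1 in R 4.3.3 on all 10 samples of an age, with 1 term per genotype, empirical Bayes moderation and a trend of variance with level. The Benjamini-Hochberg adjustment of its two-sided p-values ran over the whole table. The fit was tested on simulated data. With 2 samples on each side, exact permutation cannot reach a p below 0.33. Samples with the same replicate number deviated together weakly and with either sign. Correlations between genotypes at P21 ran from -0.3 to 0.24, with 0.1 for CrxRip/+ and Nrl-/-. They were not treated as pairs, and a fit with the replicate number as a block was run beside the main one.

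Named genes were all transcription factors of the list, the 10 largest called rises and falls above 5 FPKM, up to 4 called and 2 uncalled members of each of 22 lists, the genes most reduced in both mutants, and the 5 most abundant called genes each way. Cngb3, Pde6h, Pde6c, Kifc3, Cnga1, Pdc, Rom1, Prph2, Rp1, Gfap and Rpe65 were added after their values were seen where the rule did not give them. The comparison, the gene lists and the printed promoters were chosen with earlier results of these data known. The fit was repeated without each CrxRip/+ and Nrl-/- sample in turn, with other scalings, a pseudocount of 0.1, a minimum of 5 FPKM, no variance trend, the 4 samples alone and the replicate block. Some genes that the rule names are not reported here.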

Additional observations from a re-analysis of the deposited data

Results flagged for a closer look

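Of the 198 genes in both tables, 13 were called lower in CrxRip/+ than in Nrl-/- at P21 and higher at P2 by limma, with samples that did not overlap at either age. For 6 of the 13 the P2 difference was also called after median-of-ratios scaling, and these 6 are given here. The difference between the ages was not tested, and the 2 tables were scaled separately.

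Samd7 differed by -2.86 at P21, against 1.39 at P2, where it measured 4.4 and 3.8 FPKM in CrxRip/+ and 1.1 and 0.8 FPKM in Nrl-/- (0.79 after rescaling). Sag differed by -1.62 at P21, against 4.45 at P2, where it measured 43.8 and 39.4 FPKM in CrxRip/+ and 1.1 and 0.8 FPKM in Nrl-/- (3.81 after rescaling). Pdc differed by -1.23 at P21, against 4.98 at P2, where it measured 110.5 and 131.6 FPKM in CrxRip/+ and 2.8 and 2.9 FPKM in Nrl-/- (4.15 after rescaling). Hk2 differed by -1.09 at P21, against 1.07 at P2, where it measured 4.1 and 3.6 FPKM in CrxRip/+ and 1.3 FPKM in both Nrl-/- samples (0.42 after rescaling). Rom1 differed by -0.65 at P21, against 2.41 at P2, where it measured 58.1 and 73.4 FPKM in CrxRip/+ and 12.3 and 10.7 FPKM in Nrl-/- (1.47 after rescaling). Rp1, a microtubule protein of the outer segment that was looked up after its values were seen, differed by -0.62 at P21, where it measured 54.4 and 49.9 FPKM in CrxRip/+ and 88.8 and 73.6 FPKM in Nrl-/-. At P2 Rp1 differed by 2.40, with 14.9 and 17.2 FPKM in CrxRip/+ and 1.9 and 2.6 FPKM in Nrl-/- (1.62 after rescaling).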

How the results depend on the processing

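Of the 133 genes followed at P21, 88 were called, no called gene changed direction under the 11 alternatives, and 65 stayed called in each of them. Calls lost numbered 20 without Nrl-/- replicate 2, 16 without Nrl-/- replicate 1, 12 without CrxRip/+ replicate 2, 11 without CrxRip/+ replicate 1 and 15 with the 4 compared samples alone. Without 1 sample the count of genes higher in CrxRip/+ ran between 201 (without Nrl-/- replicate 1) and 305, with 202 without Nrl-/- replicate 2, against 315 with all samples. The replicate block gave 309 higher and 410 lower, and took away 3 calls among the followed genes. The authors' scaling gave 247 higher and 491 lower, and median-of-ratios scaling 345 higher and 379 lower. The log2 difference of 9 called genes moved by over 1.5 times with a pseudocount of 0.1, which acts on genes near 0.

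A minimum mean of 5 FPKM, which leaves fewer genes to test, gave 477 called genes in CrxRip/+ against Nrl-/- with 175 higher, 720 in CrxRip/+ against wild type with 355 higher, and 687 in Nrl-/- against wild type with 374 higher and 313 lower. At P2 it gave 201 called, 137 higher and 64 lower in CrxRip/+ against Nrl-/-, and median-of-ratios scaling gave 308 called and 117 higher. The cause of the P2 shift with scaling was not tested. FPKM with 1 decimal and no depth limit what can be read near 0.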

Other observations

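Smaller lists of genes held few calls each between CrxRip/+ and Nrl-/-, against 21.0% of all 1497 genes called higher and 27.7% lower. Of 8 Müller glia genes 1 was higher (Sox9, 0.46) and 2 were lower (Id1, -0.45, and Notch1, -0.39), and over the alternatives these counts ran from 0 to 1 higher and from 0 to 3 lower. Sox9 was not called without CrxRip/+ replicate 2 (0.28, limma adjusted p = 0.205) or Nrl-/- replicate 2 (0.33, limma adjusted p = 0.209), Id1 was not called without CrxRip/+ replicate 1 or Nrl-/- replicate 2, and the Notch1 call was lost without each of the 4 samples in turn. With the 4 samples alone none of Sox9, Id1, Notch1, Bcl2l11, Mcm6 and Pecam1 was called. Of 6 cell death genes 2 were higher, among them Bcl2l11, which promotes apoptosis (0.45, and 0.25 with no call without CrxRip/+ replicate 2), and 1 was lower. Bcl2l11 was also not called without either Nrl-/- sample. Of 4 progenitor and cell cycle genes 2 were higher, Ccna2, a cyclin of dividing cells, by 0.52 and Mcm6, a replication helicase subunit, by 0.36, a call lost without CrxRip/+ replicate 1 and without either Nrl-/- sample. Of 8 vascular genes Kdr was higher and Pecam1, an endothelial adhesion protein, lower (-0.41), a call lost without CrxRip/+ replicate 2 and without Nrl-/- replicate 1. Of 8 lipid and retinoid carrier genes Rbp4, the plasma retinol carrier, and Fabp5 were higher (1.24 and 0.50). The Rbp4 call was lost without Nrl-/- replicate 2, and the Fabp5 call without CrxRip/+ replicate 1 and without Nrl-/- replicate 1. Of 4 circadian genes 2 were higher, among them Fbxl21 (0.88), and Drd4 was lower. The 1 ganglion cell gene in the table, Isl2, was lower (-0.32, limma adjusted p = 0.0484), and this call was lost without each of the 4 samples in turn, with the replicate block, under median-of-ratios scaling and with the 4 samples alone (limma adjusted p of 0.0518 to 0.166).

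The P21 samples of CrxRip/Rip and Crx-/- mice, the homozygous allele and the null of Crx, give further levels for some genes that separated CrxRip/+ from Nrl-/-. Samd7 averaged 0.05 ± 0.07 FPKM in CrxRip/Rip and 139 ± 9.62 FPKM in Crx-/- (SD, n = 2 each). Kif19a averaged 37.8 ± 15.27 FPKM in CrxRip/Rip and 5.55 ± 0.07 FPKM in Crx-/-. Acbd7 averaged 27.2 ± 2.26 FPKM in CrxRip/Rip and 1.0 ± 0.14 FPKM in Crx-/-. Arr3 averaged 0.6 ± 0.28 FPKM in CrxRip/Rip and 43.7 ± 4.95 FPKM in Crx-/-. Gngt2 averaged 193 ± 50.84 FPKM in CrxRip/Rip and 284 ± 34.01 FPKM in Crx-/-. These values are given without a test.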
